A study of Mus musculus with 10 samples.

Results

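The 10 genes described here are platelet and megakaryocyte genes: Itga2b, Itgb3, Gp1ba, Gp5, Gp9, Gp6, Clec1b, Treml1, Pf4 and Ppbp. They were chosen by name, as the non-control array probes whose gene name, or its current symbol, is on that list. They are 10 of the 27670 genes on the array and are read by 11 of its 41174 probes, with 1 probe for each gene except Itgb3. RNA of whole lung from male mice aged 8 weeks was hybridised to 1-colour Agilent arrays. All mice had breathed aerosolised saline for 30 min before the lung was taken. The 5 wild-type mice were C57BL/6J, and the 5 p53-null mice, on the same background, lacked p53, the transcription factor encoded by Trp53. The labels do not name the Trp53 allele, and they describe the 5 samples of each genotype as biological replicates. The red cell gene Alas2 was read on the same arrays for comparison.

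Platelets are cell fragments without a nucleus that are shed into the blood by megakaryocytes, and they carry the RNA that their megakaryocyte gave them. Megakaryocytes lie mainly in the bone marrow, and some lodge in the small vessels of the lung and release platelets there. The surface of a platelet carries the fibrinogen receptor (Itga2b with Itgb3), the von Willebrand factor receptor complex (Gp1ba, Gp5, Gp9 and Gp1bb), the collagen receptor Gp6 and the podoplanin receptor Clec1b. Pf4 and Ppbp are chemokines that platelets store in alpha granules and release on activation. Alas2 makes the first enzyme of haem synthesis in developing red cells, and its RNA persists in reticulocytes, the youngest red cells of the blood. In whole lung, more cells or platelets of a kind and more RNA in each cannot be told apart.

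Sequences are shown for the 4 genes that passed the test below, since megakaryocyte genes are known to be controlled by GATA, ETS and RUNX factors. Each run holds the 250 bases before the start of the gene, 5′ to 3′ on the gene's strand, from RefSeq promoters of build GRCm38.p6. Capitals mark AGATAA or TGATAA, the letters that GATA factors read, and AGGAAG, those of ETS factors, or their reverse complements. The windows are chr11:102469884-102470133 on the minus strand for Itga2b, chr16:30310782-30311031 on the minus strand for Gp5, chr7:4397745-4397994 on the minus strand for Gp6 and chr6:129397047-129397296 on the plus strand for Clec1b.
Itga2b: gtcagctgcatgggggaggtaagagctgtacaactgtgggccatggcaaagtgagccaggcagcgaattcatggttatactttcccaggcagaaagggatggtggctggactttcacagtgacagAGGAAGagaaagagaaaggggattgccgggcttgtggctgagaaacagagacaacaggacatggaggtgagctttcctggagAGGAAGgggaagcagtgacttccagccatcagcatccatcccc
Gp5: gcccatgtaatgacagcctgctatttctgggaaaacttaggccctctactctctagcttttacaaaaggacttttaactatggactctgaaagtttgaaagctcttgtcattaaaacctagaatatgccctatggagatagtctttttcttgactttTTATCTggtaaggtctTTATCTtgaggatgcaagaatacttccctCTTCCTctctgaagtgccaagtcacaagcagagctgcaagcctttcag
Gp6: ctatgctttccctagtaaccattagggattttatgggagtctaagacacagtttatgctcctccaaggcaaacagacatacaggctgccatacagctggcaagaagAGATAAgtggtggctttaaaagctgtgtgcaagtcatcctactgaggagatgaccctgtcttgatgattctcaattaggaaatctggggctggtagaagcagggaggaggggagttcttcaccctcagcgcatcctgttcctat
Clec1b: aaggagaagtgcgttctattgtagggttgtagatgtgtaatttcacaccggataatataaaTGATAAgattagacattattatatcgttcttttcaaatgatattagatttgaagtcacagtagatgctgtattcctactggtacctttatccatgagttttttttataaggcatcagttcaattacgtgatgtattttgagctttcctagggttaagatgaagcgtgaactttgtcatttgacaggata

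Of the 10 genes, 9 matched a RefSeq promoter, Itgb3 being the exception. Both strands of the 250 bases before and the 50 bases after each gene start were searched, and the same stretch cannot match a pair of these motifs. AGATAA or TGATAA was found in 5 of the 9 (Clec1b, Gp1ba, Gp5, Gp6 and Pf4), and in 18.6% of the 32851 promoters of the table. AGGAAG was found in 5 of the 9 (Gp1ba, Gp5, Gp9, Itga2b and Pf4), against 35.4% of all promoters. TGTGGT (RUNX) was found in Gp9 alone, against 16.8% of all promoters. Counted back from the gene start by the leftmost base, the GATA letters began at -93 and -77 in Gp5, at -144 in Gp6 and at -189 in Clec1b, where a further AGATAA lay at 37 bases after the start. The ETS letters began at -125 and -43 in Itga2b and at -48 in Gp5. These matches are a description of letters in the window and were not tested.

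The array reads Itga2b, the gene by which the megakaryocyte line is usually defined, through a probe of 60 bases at chr11:102567178-102567386 on build mm7, per the files, so that 149 bases of the genome are skipped within it. Its sequence is shown because the Itga2b values below rest on this probe alone.
Itga2b probe: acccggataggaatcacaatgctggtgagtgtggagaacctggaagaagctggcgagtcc

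On each array, 71.4% to 84.0% of spots were well above background. Levels are log2 intensities relative to the array's 75th percentile, so that 0 is the level of a spot at that percentile. Levels of different probes cannot be ranked against each other. All 11 platelet probes and the Alas2 probe were well above background on all 10 arrays, and none was saturated. The probe of Trp53 with 10 spots differed by -1.28 ± 0.155 (SE) between p53-null and wild-type lung, with an adjusted p of 0.00589 in the limma fit of all probes, of which 7.1% passed. However, wild-type array 5, at -2.22, lay between the other wild-type arrays (-1.67 to -1.43) and the p53-null arrays (-3.15 to -2.66). The other Trp53 probe, at a single spot, differed by 0.31 (adjusted p 0.504). Markers of lung epithelium were present, with 12 of 12 listed genes above the filter. Wild-type array 5 also moved the number of genes called: 1581 with all arrays and 6619 without it. Counts with and without it are given below, and likewise for p53-null array 2, which was the lowest p53-null array for the platelet genes and the lowest of all arrays for Alas2.

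Of the 10 platelet genes, 4 rose in p53-null lung (Gp5, Itga2b, Gp6 and Clec1b) and none fell, at an adjusted p under 0.05 (limma, Benjamini-Hochberg over all 21116 genes tested). The median of the 10 differences was 0.99 on the log2 scale, beside a median of 0.050 for all genes. The 9 genes read by 1 probe all had differences above 0, and the probes of Itgb3 disagreed in sign. Of all genes tested, 7.49% passed, 4.59% in that direction and 2.89% in the other. The same 4 of 10 passed without wild-type array 5 (median 0.90), where 31.3% of all genes passed, and without p53-null array 2 (median 1.17), where 1.92% did. The count was 1 of 10, Gp5, without any single one of p53-null arrays 1, 3, 4 and 5 or wild-type arrays 2, 3 and 4. In those fits 0.909% to 2.69% of all genes passed. It was 3 of 10 without wild-type array 1, where 4.57% of all genes passed. Every p53-null array lay above every wild-type array for 2 of the 10, Gp5 and Itga2b, beside 5.45% of all genes tested (9.32% without overlap in either direction).

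**Figure D1:**
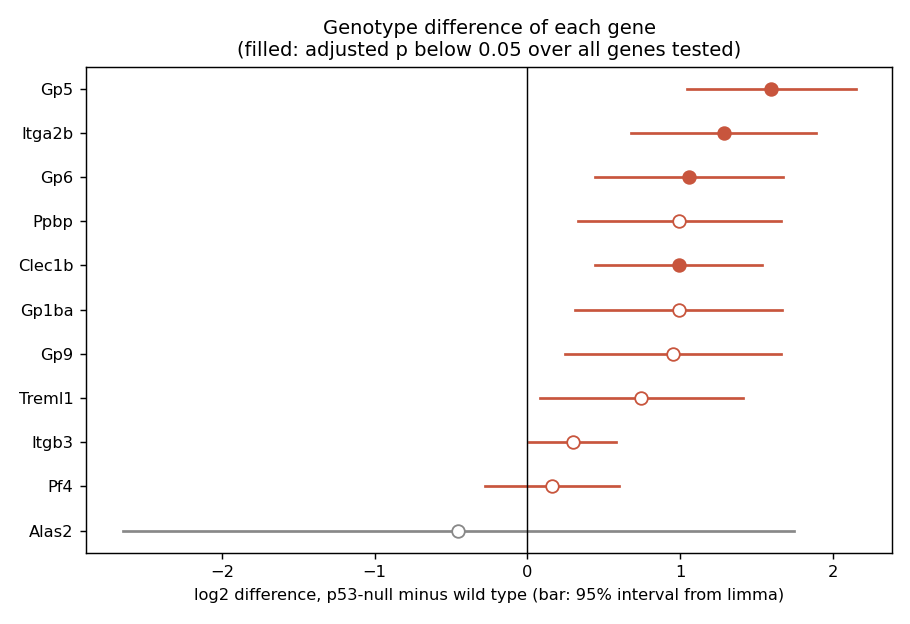
Difference between p53-null and wild-type lung for each platelet gene and for Alas2, on the log2 scale (5 arrays per genotype). Points are limma estimates, bars their 95% intervals and filled points have an adjusted p below 0.05; Gp5 lies at 1.60, Pf4 at 0.16, and the interval of Alas2 runs from -2.65 to 1.75.

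The fibrinogen receptor is a pair of integrin chains, of which Itga2b encodes the chain found on platelets and megakaryocytes and Itgb3 a chain that other cells use too. Levels of Itga2b in wild-type arrays 1 to 5 were -1.89, -2.34, -3.08, -2.75 and -2.25. In p53-null arrays 1 to 5 they were -0.64, -1.70, -0.83, -1.09 and -1.63. The lowest p53-null array was above the highest wild-type array, so the groups did not overlap. The mean rose from -2.46 ± 0.46 to -1.17 ± 0.47 (SD, n = 5), a difference of 1.28 ± 0.27 (SE) or 2.44-fold, with a limma adjusted p of 0.0290. The adjusted p was 0.0106 to 0.0438 when wild-type array 1 or 5 or p53-null array 2 was left out, and 0.0506 to 0.0774 when any other single array was.

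Itgb3 was read by a pair of probes that went in opposite directions. The probe that stood for the gene in the fit, at chr11:104779399-104779458 (mm7), is matched in the file to a cDNA clone and was named through its symbol. On it, wild-type levels were 2.39, 2.29, 2.38, 2.24 and 2.27, and p53-null levels 3.04, 2.33, 2.56, 2.69 and 2.43. The p53-null arrays were spread more widely, from just inside the wild-type range to well above it, and the difference of 0.30 ± 0.13 (SE) did not pass (adjusted p 0.166). The probe of the RefSeq transcript, at chr11:104776217-104776287, gave -1.14, -0.82, -0.92, -0.89 and -2.50 in wild-type arrays 1 to 5. It gave -1.91, -1.999, -1.97, -2.03 and -2.01 in the p53-null arrays. The p53-null values spanned 0.12 (SD 0.048) and lay below 4 wild-type arrays, while wild-type array 5 lay below them all. Over all arrays this probe differed by -0.73 ± 0.29 (SE; limma adjusted p over all probes 0.140), and without wild-type array 5 by -1.04 (adjusted p 3.0e-04). With the mean over both probes, the difference of Itgb3 was -0.22 (adjusted p 0.461), so no direction is given for this gene.

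Gp1ba, Gp5 and Gp9 encode subunits of the receptor that tethers platelets to von Willebrand factor on injured vessel walls. Gp5 showed the largest difference of the 10 genes. Its levels in wild-type arrays 1 to 5 were -3.31, -3.63, -4.10, -3.51 and -2.95, and in p53-null arrays 1 to 5 they were -1.39, -2.36, -1.54, -2.02 and -2.22. All p53-null arrays were above all wild-type arrays, and the closest pair was p53-null array 2 and wild-type array 5. The difference was 1.60 ± 0.25 (SE), 3.03-fold, with a limma adjusted p of 0.0135. It passed whichever single array was left out, with an adjusted p from 0.00155 to 0.0434.

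Gp9, which the receptor needs to reach the cell surface, had wild-type levels of -0.83, -1.04, -1.88, -1.60 and -1.19 and p53-null levels of 0.34, -1.22, 0.24, -0.51 and -0.63. All p53-null arrays except array 2 were above all wild-type arrays, and the difference of 0.95 ± 0.32 (SE) did not pass (adjusted p 0.0894). Gp1ba, the chain that binds von Willebrand factor, had wild-type levels of -2.75, -3.35, -3.47, -2.40 and -3.64 and p53-null levels of -1.46, -2.83, -1.81, -2.34 and -2.21. The p53-null array 2 lay below wild-type arrays 1 and 4, and the difference of 0.99 ± 0.30 (SE) had an adjusted p of 0.0721. The remaining subunit, Gp1bb, was on a separate list and differed by 0.68 (adjusted p 0.0713). The 95% intervals of the differences ran from 0.25 to 1.66 for Gp9 and from 0.31 to 1.67 for Gp1ba, and both held the value of Gp5.

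**Figure D2:**
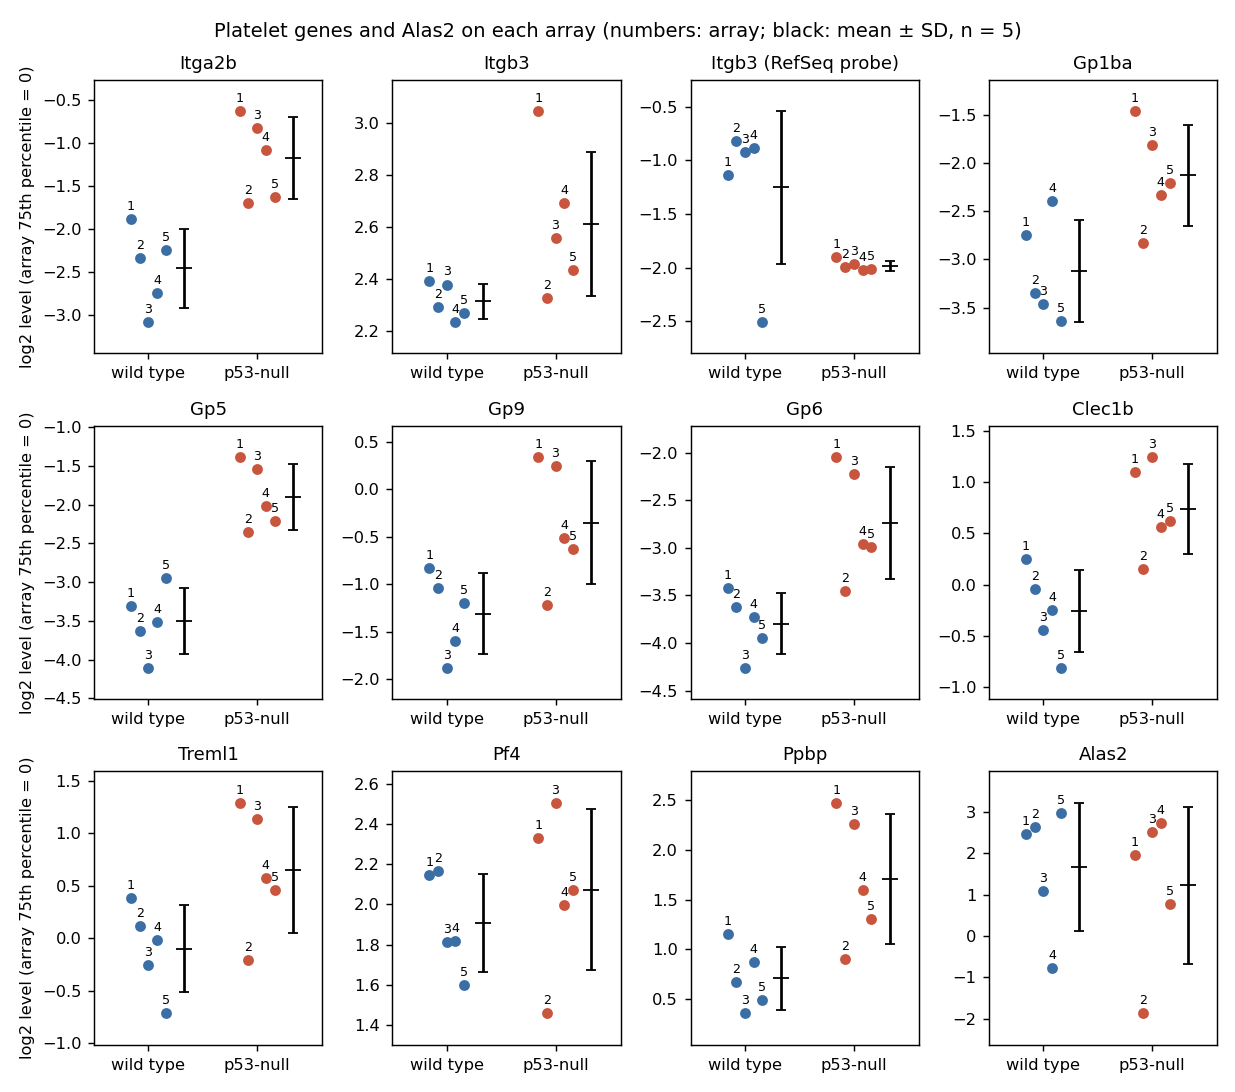
Level of each platelet gene and of Alas2 on every array (log2, relative to the array's 75th percentile), with the number of the array beside each point and the mean ± SD in black (n = 5 per genotype). Gp5 and Itga2b show no overlap between the genotypes, the RefSeq probe of Itgb3 shows wild-type array 5 at -2.50, and the Alas2 levels of the genotypes overlap widely; each panel has its own vertical axis.

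Gp6 and Clec1b encode receptors that start platelet activation through the kinase Syk, Gp6 on binding collagen and Clec1b on binding podoplanin, a surface protein of lymphatic and alveolar type I cells. Levels of Gp6 were -3.42, -3.62, -4.26, -3.73 and -3.95 in wild-type arrays 1 to 5 and -2.05, -3.46, -2.22, -2.96 and -3.00 in p53-null arrays 1 to 5. Only p53-null array 2 fell within the wild-type range, just under wild-type array 1. Gp6 rose by 1.06 ± 0.27 (SE), 2.09-fold, with a limma adjusted p of 0.0475. The adjusted p was 0.0476 without p53-null array 2, 0.0336 without wild-type array 5 and 0.0595 to 0.123 when any other single array was left out.

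Levels of Clec1b were 0.25, -0.040, -0.44, -0.25 and -0.81 in wild-type arrays 1 to 5 and 1.09, 0.15, 1.24, 0.56 and 0.62 in p53-null arrays 1 to 5. The overlap was again p53-null array 2 with wild-type array 1. Clec1b rose by 0.99 ± 0.25 (SE), 1.99-fold, with a limma adjusted p of 0.0427. The adjusted p was 0.0248 to 0.0491 without wild-type array 1 or 5 or p53-null array 2, and 0.0722 to 0.110 without any other single array. Treml1, a receptor kept in alpha granules and brought to the surface on activation, had wild-type levels of 0.38, 0.11, -0.25, -0.020 and -0.72 and p53-null levels of 1.29, -0.21, 1.13, 0.58 and 0.46. With p53-null array 2 inside the wild-type range, its difference of 0.75 ± 0.30 (SE) did not pass (adjusted p 0.141).

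The pair of granule chemokines, neighbours on chromosome 5, gave unlike values. Ppbp had wild-type levels of 1.16, 0.67, 0.36, 0.88 and 0.49 and p53-null levels of 2.47, 0.90, 2.26, 1.60 and 1.30. Its difference, 0.996 ± 0.30 (SE) or 1.99-fold, was near those of the surface receptors, but did not pass (adjusted p 0.0685). Pf4 had wild-type levels of 2.15, 2.17, 1.81, 1.82 and 1.60 and p53-null levels of 2.33, 1.46, 2.51, 1.998 and 2.07. The genotypes overlapped over most of their range, and the difference of 0.16 ± 0.20 (SE; adjusted p 0.633) had a 95% interval from -0.28 to 0.60. That interval does not reach the estimate of Ppbp, but it overlaps the 95% interval of Ppbp, 0.33 to 1.66. The difference between the genes was not itself tested.

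The platelet genes, each read by the probe that stood for it in the fit, followed an order of arrays within each genotype that was shared in part. The RefSeq probe of Itgb3 did not follow it: p53-null array 4 was its lowest (-2.03), and wild-type array 1 (-1.14) lay above wild-type array 5 only. Among the p53-null arrays, array 2 was the lowest for all 10 genes, array 1 was among the highest pair for 10 and array 3 for 9. Among the wild-type arrays, array 1 was among the highest pair for all 10, and the lowest was array 3 for 5 genes, array 5 for 4 and array 4 for 1. Yet array 5 was the highest wild-type array for Gp5 (-2.95), and array 4 for Gp1ba (-2.40). Taken as the median deviation of the 10 genes from their means over all arrays, wild-type arrays 1 to 5 stood at -0.061, -0.32, -0.85, -0.40 and -0.56. The p53-null arrays 1 to 5 stood at 1.17, -0.20, 0.998, 0.32 and 0.20. In p53-null arrays 1 and 3, all 10 genes were above every wild-type array, and in arrays 4 and 5, 9 of 10 were. In array 2 that held for 2, Gp5 and Itga2b.

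**Figure D3:**
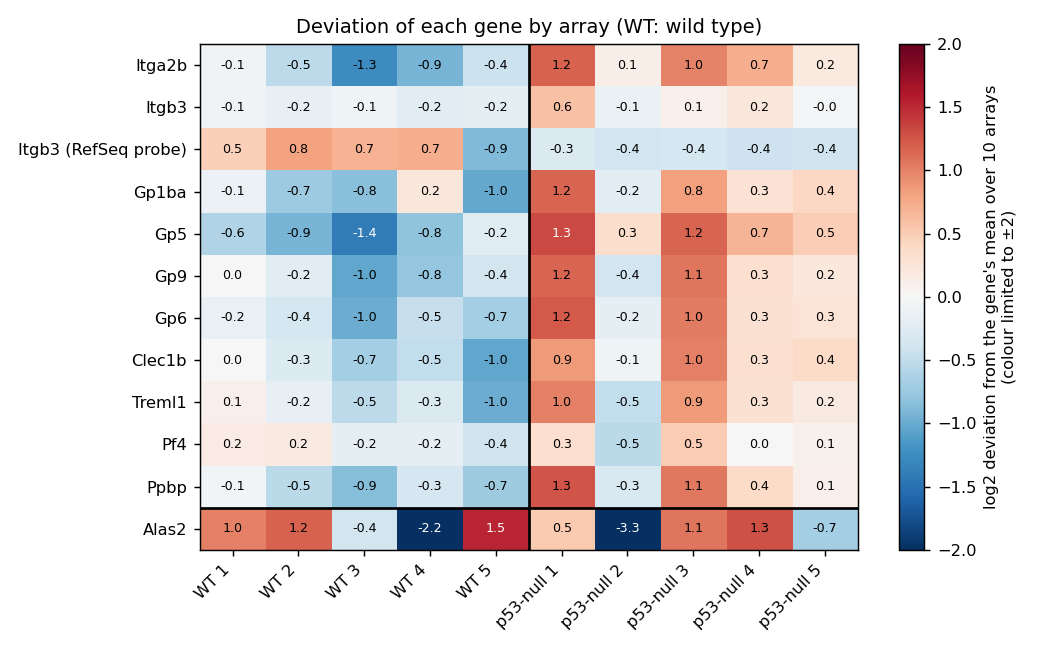
Deviation of each platelet gene and of Alas2 from its mean over the 10 arrays (log2; red above, blue below, colour limited to 2 either way), with wild-type arrays to the left of the thick line and p53-null arrays to the right. The columns of p53-null arrays 1 and 3 are the reddest and that of array 2 is near the mean, the RefSeq probe of Itgb3 runs the other way, and Alas2 is lowest in p53-null array 2 (-3.3) and wild-type array 4 (-2.2).

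The arrays lay on 6 slides, of which 1 carried both genotypes (p53-null array 2 beside wild-type array 4). There, p53-null array 2 was higher by 1.16 for Gp5, 1.05 for Itga2b, 0.40 for Clec1b, 0.38 for Gp9 and 0.27 for Gp6. It differed by 0.090 for Itgb3 and 0.024 for Ppbp, and by -0.19 for Treml1, -0.36 for Pf4 and -0.43 for Gp1ba. This is 1 array against another, with no replicate. When slide was fitted as a fixed block, an estimate that comes from this pair alone, the median of the 10 genes was 0.18. None of the 10 passed, and neither did any other of the 21116 genes tested. Slide numbers fell into a lower and a higher range, the higher of which contained p53-null array 2 with wild-type arrays 3 and 4. The median was 1.09 in the lower range, where 0 of the 10 genes and 0.0758% of all genes passed. It was 0.39 in the higher range, where p53-null array 2 is the only array of its genotype. With the range as a block it was 0.91, with 2 of the 10 passing beside 3.30% of all genes.

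Alas2 varied far more between arrays than any platelet gene and did not follow genotype. Its levels were 2.46, 2.63, 1.09, -0.77 and 2.97 in wild-type arrays 1 to 5 and 1.97, -1.87, 2.52, 2.73 and 0.77 in p53-null arrays 1 to 5. The arrays spanned 4.84 log2 units, beside 2.72 for Gp5 and 1.05 for Pf4, and most arrays of either genotype lay within the range of the other. Wild-type array 5 was above every p53-null array, and p53-null array 2 was below every wild-type array. The mean difference was -0.45 ± 0.98 (SE; adjusted p 0.808), with a 95% interval from -2.65 to 1.75, and it was 0.32 without p53-null array 2. That array was the lowest of the p53-null arrays for Alas2 as for the 10 platelet genes. It shared a slide with wild-type array 4, the lowest wild-type array for Alas2, so animal and slide cannot be told apart there. In the wild type, array 5 was the highest for Alas2 and the lowest for 4 platelet genes.

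When the value of Alas2 was taken from each gene on the same array, the differences between genotypes ran from 0.62 for Pf4 to 2.05 for Gp5. None of them passed (limma adjusted p 0.995 for all 10), and of all 21115 genes tested 0% passed, with 55 at an unadjusted p under 0.05. The 95% interval was -0.20 to 4.30 for Gp5 and -0.51 to 3.99 for Itga2b, and the two-sided exact permutation p over 252 splits was 0.0714 and 0.0873. The spread of Alas2 itself enters every one of these values, with an SE of 1.15. The call depended on how the spread was modelled. With array weights, which give less weight to arrays that deviate more, 8 of the 10 genes differed from Alas2, beside 4.59% of all genes tested. Those 8, all but Itgb3 and Pf4, ran from 1.16 for Treml1 (limma adjusted p 0.0335) to 2.06 for Gp5 (adjusted p 3.5e-06). With slide range blocked, Gp5 alone of the 10 differed (2.56, limma adjusted p 0.0201), beside 0.919% of all genes. In each of the fits that left out 1 array none of the 10 passed.

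**Figure D4:**
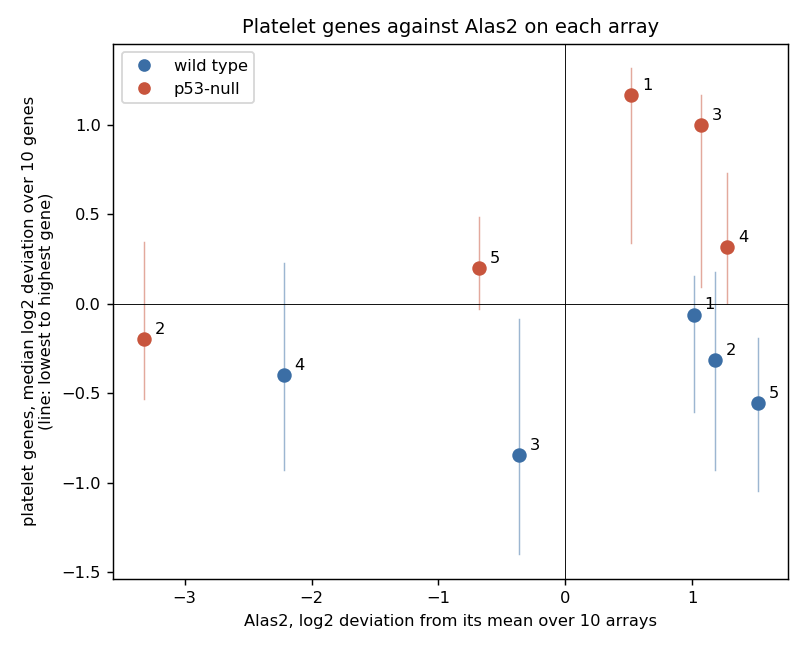
Median deviation of the 10 platelet genes (vertical, log2; thin lines run from the lowest to the highest gene) against the deviation of Alas2 on the same array (horizontal, log2), 1 point per array with its number. Arrays with like Alas2 deviations, such as p53-null array 3 (1.07) and wild-type array 2 (1.18), stand at 0.998 and -0.32 for the platelet genes, and p53-null array 2 is lowest in Alas2.

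Of 24 red cell genes listed, Alas2 included, 16 were tested, and none passed in either direction. Their median difference was 0.16, and the median deviation of the list ran from -0.78 to 0.52 over wild-type arrays and from -0.74 to 0.80 over p53-null arrays. Haemoglobin alpha (Hba-a1) was at 4.38 in wild-type array 4 and 2.87 in p53-null array 2, and at 5.50 to 6.96 on the other arrays. The same arrays were therefore low in Hba-a1 and in Alas2, and they lay on the same slide.

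Genes outside the 10 that serve megakaryocytes and platelets moved in part. Of 9 genes for transcription factors of the line, 3 rose and none fell, beside 4.59% and 2.89% of all genes tested. The median of the 9 was 0.11. Nfe2, a factor needed for platelet release, was at -1.77 to -1.09 in wild-type and -0.54 to 0.44 in p53-null arrays and rose by 1.16 ± 0.20 (SE; limma adjusted p 0.0166). Gfi1b, a repressor shared by the megakaryocyte and red cell lines, rose by 1.04 ± 0.18 (adjusted p 0.0185). Both lost the call only without p53-null array 3 (adjusted p 0.0541 for Nfe2 and 0.0573 for Gfi1b). Gata1, the master factor of both lines, rose by 1.13 ± 0.25 (adjusted p 0.0318), and among fits without 1 array it passed only without wild-type array 5, with adjusted p values up to 0.0815. Tal1 differed by 0.0030 and Zfpm1, the partner of Gata1, by -0.38 (adjusted p 0.079).

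Of 16 other platelet receptors, 2 rose and 2 fell, beside 4.59% and 2.89% of all genes tested. The median of the 16 was 0.48. Cd226, an adhesion receptor also carried by T and NK cells, rose by 0.88 ± 0.14 (SE; limma adjusted p 0.0141), and Lat, an adaptor of Gp6 and of the T cell receptor, by 0.85 ± 0.18 (adjusted p 0.0285). The laminin receptor chain Itga6 fell by 0.61 on the log2 scale (SE 0.082, adjusted p 0.00926) and the collagen receptor chain Itga2 by 0.59 (SE 0.11, adjusted p 0.0204); both chains are also made by epithelium, and Itga6 by endothelium. Itga6 and Cd226 passed in all 10 fits without 1 array. Itga2 lost the call, at 0.0521 to 0.0583, without p53-null array 1, 3 or 5 or wild-type array 3. Lat lost it, at up to 0.0774, without p53-null array 1, 3 or 5 or wild-type array 2, 3 or 4. The thromboxane receptor Tbxa2r (0.90, adjusted p 0.061) did not pass.

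Of 12 granule proteins 1 rose, a share near the 7.49% of all genes that passed in either direction, and the median was -0.081. The gene that rose was F5, coagulation factor V, at 1.06 ± 0.27 (SE; limma adjusted p 0.0475). It passed without wild-type array 5 (0.0292) and in none of the other fits without 1 array, where the adjusted p ran up to 0.124. Vwf, von Willebrand factor, which endothelium makes as well, differed by -0.030 and P-selectin (Selp), which both cells store, by -0.21, and neither passed. Of 17 genes of the cytoskeleton and signalling tested, out of 19 listed, 5 rose and none fell, beside 4.59% and 2.89% of all genes. The median of the 17 was 0.17. Those that rose were Fermt3, the integrin activator of blood cells (1.29 ± 0.24), Syk, the kinase used by Gp6 and Clec1b (1.16 ± 0.24), Vav1 (1.04 ± 0.15), Plek (0.66 ± 0.15), a substrate of protein kinase C in platelets and leukocytes, and Plcg2 (0.60 ± 0.13), the phospholipase downstream of Syk. Their limma adjusted p values ran from 0.0114 for Vav1 to 0.0342 for Plek, and all of them are also expressed in leukocytes. Vav1 passed without any single array. Fermt3 lost the call without p53-null array 3 or wild-type array 2 or 3 (0.0538 to 0.0633). Syk kept it only without wild-type array 1 or 5 or p53-null array 1, and Plcg2 only without wild-type array 5 or p53-null array 1 or 4.

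The counts of these 4 lists moved with single arrays. In either direction, calls among the factors were 5 of 9 without wild-type array 5, 2 without p53-null array 2 and 0 without p53-null array 3. Among other receptors they were 10, 4 and 2 of 16, among granule proteins 3, 0 and 0 of 12, and among cytoskeleton and signalling genes 8, 2 and 1 of 17. Of all genes tested, 31.3%, 1.92% and 0.909% passed in these 3 fits, so that the share of granule proteins without wild-type array 5 was below that of all genes.

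**Figure D5:**
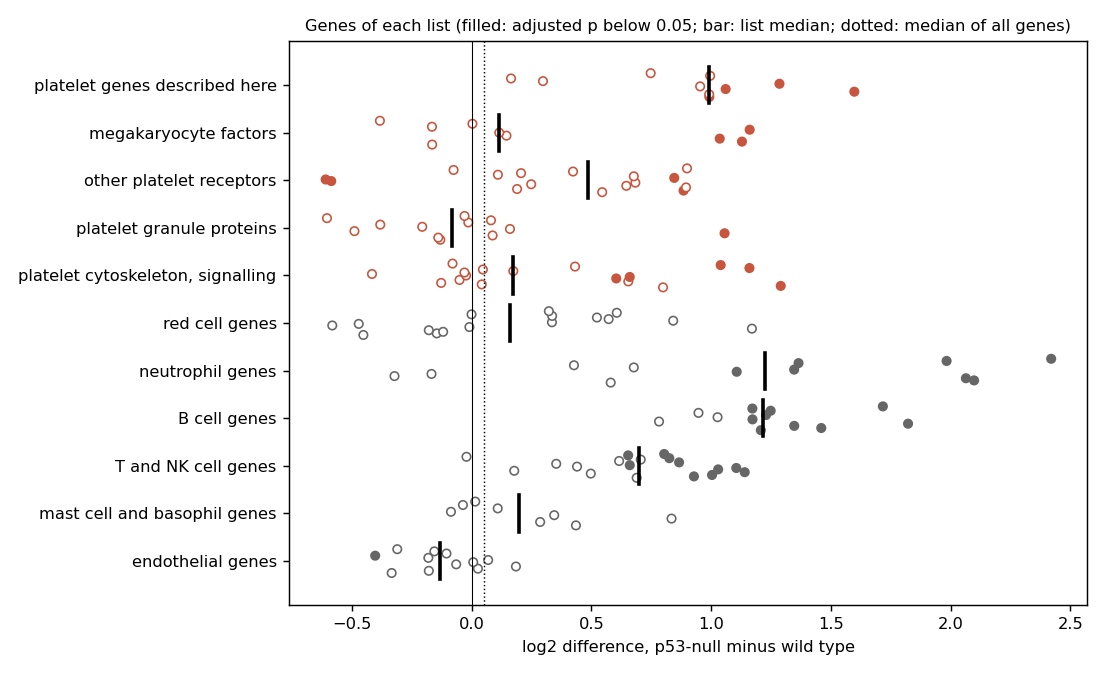
Difference between p53-null and wild-type lung (log2) for the genes of each list, with filled points at an adjusted p below 0.05, a bar at each list's median and a dotted line at the median of all genes (0.050). Platelet lists are in red; the 10 platelet genes centre on 0.99, platelet granule proteins on -0.081 and red cell genes on 0.16, while neutrophil and B cell genes centre on 1.23 and 1.22.

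Markers of some leukocytes rose in p53-null lung too. Of 12 neutrophil genes tested 7 rose (median 1.23), of 12 B cell genes 9 (median 1.22) and of 18 T and NK cell genes 10 (median 0.70), and none of these fell. Of all genes tested, 4.59% rose and 2.89% fell. The summed level of the neutrophil list, in units of the array's 75th percentile, was 14.7 to 19.0 in wild-type and 29.1 to 52.0 in p53-null arrays. That of 11 B cell genes, Ms4a1 being left out because 1 array lacks its value, was 10.4 to 21.1 and 29.8 to 59.2, and that of the T and NK cell list 9.09 to 12.3 and 14.5 to 19.2. For the 10 platelet genes it was 11.4 to 15.6 and 12.8 to 26.3, so that their sums overlapped where those of these 3 lists did not. Probes with a high signal, such as those of Itgb3 and Pf4, weigh most in a sum. The median deviation of the platelet genes was -0.85 to -0.061 in wild-type and -0.20 to 1.17 in p53-null arrays. It was -0.64 to -0.44 and 0.31 to 1.24 for neutrophil genes, and -0.63 to -0.11 and 0.13 to 0.57 for T and NK cell genes. For B cell genes it was -1.27 to -0.18 and 0.29 to 1.29. The lowest p53-null array for the platelet genes, array 2, was not the lowest for any of these leukocyte lists. Without p53-null array 3, calls were 5 for neutrophil, 2 for B cell and 2 for T and NK cell genes, with 0.909% of all genes passing. Without wild-type array 5 they were 8, 10 and 12, with 31.3% passing. Of 12 macrophage genes 1 rose (Csf1r, 0.56) and 1 fell (Marco, -0.77), beside 4.59% and 2.89% of all genes. The macrophage list had a median of 0.23 and a summed level of 68.9 to 115 in wild-type and 79.8 to 99.5 in p53-null arrays. Endothelial genes centred on -0.13 with 1 of 12 falling (Plvap, -0.40), beside 2.89% of all genes. Lung epithelial genes centred on -0.018 with none of 12 passing, and mast cell and basophil genes on 0.20 with none of 8 passing. The part of these cells in the platelet result was not tested.

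By Pearson correlation of levels over the 10 arrays, the genes outside the list most like Itga2b, of 16212 compared, were Gmnn (0.965), Zbtb8os (0.962), Slc2a3 (0.959), Foxred2 (0.959), Mms22l (0.958), Nsl1 (0.958), Zbtb11os1 (0.955) and Nol7 (0.955). These values share the difference between genotypes, which is 0.67 for Gmnn, the inhibitor of replication licensing, and 1.12 for Slc2a3, a glucose transporter of leukocytes and platelets. With each genotype's mean taken off, the most alike were Mcm2 (0.917), Apol11b (0.901), Rsad2 (0.896), Gmnn (0.893), Zbtb8os (0.886), Spag5 (0.882), Slc2a3 (0.879) and F5 (0.875). On that measure Itga2b stood at 0.931 with Gp9, 0.860 with Gp5, 0.846 with Gp6 and 0.817 with Ppbp, and at 0.732 with Alas2. Below the value of Alas2 were those of Treml1 (0.670), Clec1b (0.651), Pf4 (0.642), Itgb3 (0.615) and Gp1ba (0.477). On levels, the correlation of Itga2b was 0.958 with Gp5 and 0.274 with Alas2. All of these are descriptions over the same 10 arrays, which share slide, scaling and the mix of cells in each lung.

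Of the 10 genes 3 lie on chromosome 11, where Trp53 lies too. On build mm7, per the files, the Gp1ba probe is 1.05 Mb from the Trp53 probe, the Itga2b probe 32.9 Mb and the Itgb3 probes 35.1 Mb. The 3 genes on chromosome 11 had a median difference of 0.99 with 1 passing, and the 7 on other chromosomes a median of 0.99 with 3 passing. The others are Pf4 at chr5:90744523-90744582 and Ppbp at chr5:90741218-90741277, Gp9 at chr6:87854749-87854808 and Clec1b at chr6:129428509-129428568, Gp6 at chr7:3926779-3926838, Gp5 at chr16:29981233-29981292 and Treml1 at chr17:46511708-46511767.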

How the data were processed

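Lungs of 5 wild-type and 5 p53-null mice gave total RNA, which was copied into Cy3-labelled cRNA, per the labels' protocols, and read on Agilent arrays with 1 colour. The deposited intensity of each spot is background-subtracted and detrended within its array, per the file headers, and was made with Agilent Feature Extraction 9.5, as the submitters' processing notes name it. The deposited value table held the same intensity values (largest difference 0).

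For each array, the 75th percentile of its 43379 non-control spots was subtracted on the log2 scale, outlier spots were dropped (719 on wild-type array 3, 51 to 137 on the others) and spots of a probe were averaged. The probe with the highest mean level stood for its gene. The test, limma 3.58.1 in R 4.3.3 at a Benjamini-Hochberg adjusted p of 0.05, covered 21116 of 27670 genes, those with a signal well above background on 5 or more of the 10 arrays. Second fits used all 31599 probes above that filter, and each gene minus Alas2. Of 41174 probes, 22951 were named by accession, 6659 by symbol and 3109 by synonym through RefSeq tables, and 8455 kept the file's name. Among the 11 platelet probes, 9 were named by accession; Gp6 and the Itgb3 probe used in the fit were named by symbol.

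The genes and lists were chosen with earlier results of these data known. Named genes are the 10 platelet genes, Alas2 and Trp53, up to 4 passing genes by smallest p in each platelet list, and the 8 genes most correlated with Itga2b on each of 2 measures; other genes were named after their values were seen. Lists are described by counts and medians, over the genes tested, with no set test; 1 further gene is not reported here. Other settings tried were for background, scaling, filter, probe choice, GC content, slide, scan day, replicate number, array weights and each array left out. Replicate numbers did not pair the samples: deviations of same-numbered arrays correlated at -0.22 to 0.0011. In data simulated for the genotype comparison over 20606 genes, 31.3% of genes changed 1.5-fold, 58.2% changed 2-fold and 89.4% changed 4-fold were recovered, with 8 false calls. Only 66 or 67 genes were changed at each size, a smaller share than the 7.49% called on the real arrays. The simulated noise was drawn separately for each gene and array, without any shift shared by the genes of an array. Recovery and false calls on the real arrays can therefore differ from these values. The number of arrays limits the precision.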

Additional observations from a re-analysis of the deposited data

Results flagged for a closer look

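Among 50 groups of 5 arrays examined, 5 held an array whose gap to its nearest neighbour exceeded Dixon's critical value for 5 samples, and chance alone flags about 1 group in 20. The RefSeq probe of Itgb3 was at -2.50 (log2 level) in wild-type array 5, and the nearest other wild-type array was at -1.14. In p53-null array 1, Vav1 was at 0.53 beside 0.037 in the nearest array, Syk at 1.62 beside 0.80 and Plcg2 at 2.91 beside 2.43. Syk was also high in wild-type array 5, at 0.38 beside -0.34.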

How the results depend on the processing

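With 1 probe standing for each gene, no platelet gene passed in the lower direction under any of the 28 alternatives. The RefSeq probe of Itgb3 did, at -0.97 with array weights and -1.04 without wild-type array 5. The median of the 10 genes was above 0 in all the alternatives (0.18 to 1.17). Some alternatives could not move a difference, since the deposited values were the same. The filters, a trend in the variance modelled by limma and the replicate block also left each estimate unchanged (median 0.99). Scan day as a block was the same fit as leaving out wild-type array 3. The number of platelet genes passing moved more: it was 7 with array weights, 2 with median scaling, 1 with no filter on dim probes, 2 with the GC trend of probes removed, 1 with scan day as a block, 2 with slide as a random block, 2 with slide number range blocked, and 0 with slide as a fixed block, within either slide range, or when p53-null arrays 4 and 5 and wild-type array 2 were left out. Leaving out 1 array gave 1 to 4, with the median from 0.81 to 1.17. The median was 0.18 with slide as a fixed block and 0.39 within the higher slide range. Over all genes, calls were 6516 with array weights, 583 with median scaling, 538 with no filter, 322 with scan day, 697 with the slide range as a block, 16 within the lower range and 10 without the 3 arrays named; limma called 0 with slide as a fixed block (1139 at an unadjusted p under 0.05) and 0 within the higher range (2599). Leaving out 1 array gave 192, without p53-null array 3, to 6619, without wild-type array 5. The share of all genes passing was 30.9% with array weights, 6.28% with the GC trend removed and 5.50% with slide as a random block. It was 2.76% with median scaling, 1.94% with no filter, 1.52% with scan day and 3.30% with the slide range as a block. Genes differing from Alas2 numbered 970 with array weights (8 of the platelet genes), 4 with slide as a fixed block, 1 as a random block, 194 with the range as a block (Gp5 among them), 78 within the lower range and 0 to 2 without 1 array.

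The sign turned for Itgb3 with the mean over its probes (-0.22), for Pf4 with slide as a fixed block (-0.36) and within the higher range (-0.36), for Gp1ba with slide as a fixed block (-0.43), for Treml1 with slide as a fixed block (-0.19) and within the higher range (-0.075), for Alas2 without p53-null array 2 (0.32; -1.06 to 0.32 without any 1 array), for Pf4 minus Alas2 without that array (-0.0029; -0.0029 to 1.21 without any 1 array) and for Trp53 with the mean over its probes (-0.49). The cause was not tested. With the replicate number as a block, 26 genes and 0 platelet genes passed (adjusted p 0.119 for Gp5, 3998 genes at an unadjusted p under 0.05), and 0 differed from Alas2 (14 unadjusted); the numbers do not pair these arrays.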

Other observations

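Skeletal muscle and squamous epithelial genes differed between arrays of the same genotype. The median deviation of the muscle list was 4.29 in wild-type array 2, 2.53 in p53-null array 4 and 2.88 in p53-null array 5, and that of the squamous list was 5.85 in wild-type array 2 and 4.84 in p53-null array 5. Without these 3 arrays the median difference of the 10 platelet genes was 1.15, and none passed with limma.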
